A study of Danio rerio with 12 samples.

Results

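Heat shock proteins and their partner chaperones were followed in sorted endothelial cells of zebrafish embryos after knockdown of the endothelial microRNA miR-126. The members were the genes whose array symbol begins as the names of heat shock proteins, J proteins, BAG proteins, CCT and prefoldin subunits or heat shock factors do, with hspg2, a matrix proteoglycan, left out. The rule gave 71 of the 8793 genes that the array annotation named, and the brightest probe set of a gene over the 12 arrays stood for it. There were 3 small heat shock proteins, 45 members of the Hsp70/40 system, 4 Hsp90 genes, 14 chaperonin and prefoldin genes and 5 others. Of the 5 others, hsf1, hsf2 and hsf5 are heat shock factors, while hsf2bp and tcp11l2 were taken in by the first letters of their symbols and are not known as chaperones.

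The embryos carried flk1:GFP, a transgene in which the promoter of the endothelial receptor gene flk1 drives GFP, and GFP-positive cells were sorted at 48 hours after fertilization. The groups were miR-126 MO-1, miR-126 MO-2 and control, each with 4 biological replicates and 1 array per replicate. MO-1 and MO-2 are different morpholinos, antisense oligonucleotides that hinder processing of the miR-126 precursor, and 4 ng was injected at the one-cell stage. Control replicate 1 is labelled uninjected, the labels of control replicates 2 to 4 mention no injection, and a control oligonucleotide is named nowhere. Effects of the knockdown and of the injection itself cannot be told apart. Amplified RNA was read on 12 Affymetrix zebrafish arrays of 1 colour, and every level below is the log2 signal of a probe set, which allows a gene to be compared between arrays but not with another gene.

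Chaperones bind proteins that are not folded and keep them from clumping. Small heat shock proteins hold such proteins without using ATP, the Hsp70 machine binds and releases them in ATP-driven cycles started by J proteins (Hsp40) and reset by exchange factors such as Hsp110 and BAG proteins, and Hsp90 finishes the folding of kinases, receptors and, in muscle, of myosin. Chaperonins are ring-shaped chambers: CCT folds actin and tubulin in the cytosol with help from prefoldin, and Hsp60 with its lid Hsp10 works in mitochondria. Heat shock factors switch many of these genes on under protein stress.

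Median signals of the arrays lay between 6.79 and 6.85 and array-to-array correlations between 0.944 and 0.992. Their number limits the precision, and 95% intervals for 4 against 4 arrays reached a median of 0.40 to each side. Of the 27 listed endothelial markers 11 had a named probe set, and cdh5, pecam1 and flt1 were not among them. The mean of the 11 centred markers (each gene set to a mean of 0 over the 12 arrays) was lowest in the array numbered 4 of each group, at -0.93 with MO-1, -0.85 with MO-2 and -0.50 in control. The 28 measured skeletal muscle markers had mean log2 signals of 8.49 to 10.49 with MO-1, 9.58 to 10.97 with MO-2 and 8.15 to 10.30 in control, so RNA of muscle genes was measured in every sort. Their median difference was 0.01 with MO-1 and 0.61 with MO-2, where 27 of 28 were higher than in control, and 0 of 28 passed the test in either comparison. The 11 measured erythroid markers had medians of -0.56 for MO-1 and -0.01 for MO-2, while the 16 neural markers had -0.23 and -0.36, and 0 passed. In bulk RNA of sorted cells, fewer cells of a type and less RNA per cell cannot be told apart.

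None of the 71 genes passed the test between the groups. With limma and Benjamini-Hochberg adjustment over the 15502 probe sets, 0 members were called at 0.05 in each of the 4 comparisons (MO-1, MO-2 and their mean set against control, and the morpholinos set against each other), as were 0% of all genes and 0% of probe sets. Taking the replicate number as a block, since same-numbered arrays deviated together, also gave 0 calls in each comparison. At an unadjusted p under 0.05 there was 1 member with MO-1 (1.41% of members, against 1.11% of all genes), hspa1b. With MO-2 there were 6 (8.45%, against 2.16%): hspb1, hspb8 and hspa1b had higher means, and hspa5, hspe1 and dnajb6a lower means than in control. With both together there were 3 (against 1.8% of all genes) and between the morpholinos 2 (against 0.625%). With the block these counts were 3 with MO-1 (against 2.99%), 10 with MO-2 (against 6.61%), 8 with both (against 5.69%) and 5 between the morpholinos (against 2.63%).

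Over all 71 members the median difference from control was 0.01 for MO-1 and -0.02 for MO-2, beside 0.02 and 0.01 over the 8793 genes. The 3 small heat shock proteins had medians of 0.40 (MO-1) and 0.67 (MO-2). Medians of the Hsp70/40 system were -0.02 and -0.01, of Hsp90 0.02 and -0.16, and of the chaperonins 0.04 and -0.03. A higher mean than in control was found for 37 of 71 members with MO-1 (against 56.2% of all genes) and for 32 with MO-2 (against 53.3%). MO-1 and MO-2 were set against the same 4 control arrays, so their values are given side by side and not as independent repeats.

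**Figure D1:**
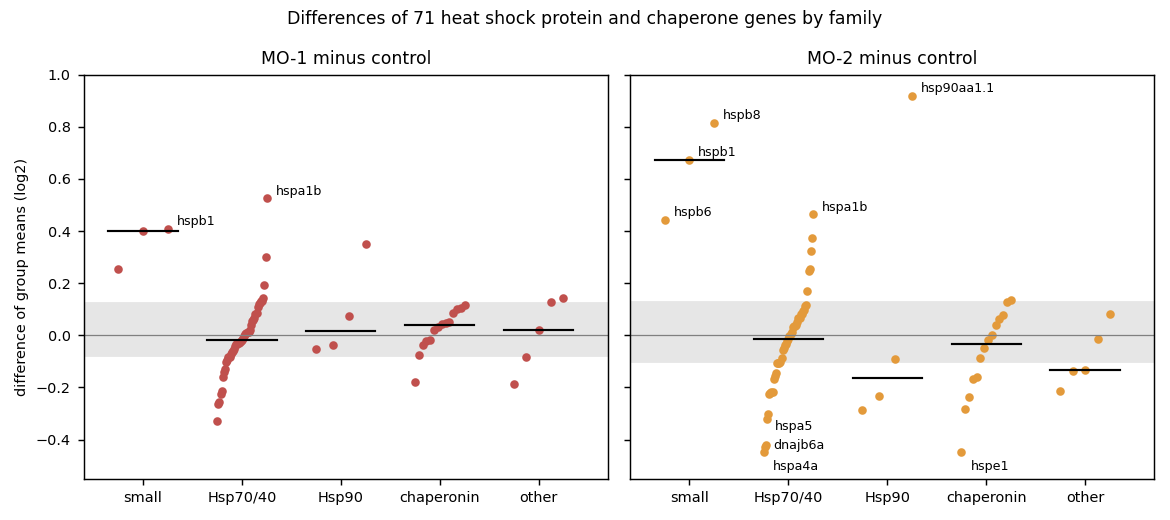
Difference of group means (log2) for each of the 71 genes by family, with MO-1 minus control on the left and MO-2 minus control on the right. Each dot is a gene, black lines are family medians, and the grey band holds the middle 50% of the 8793 genes; dots of the small heat shock proteins lie above the band in both panels, while most Hsp70/40 and chaperonin dots lie within or near it.

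Among the small heat shock proteins, hspb1, the zebrafish counterpart of Hsp27, had log2 signals of 6.54, 7.06, 6.86 and 7.23 in MO-1 replicates 1 to 4. In MO-2 replicates 1 to 4 it had 6.74, 7.43, 7.07 and 7.51, and in control replicates 1 to 4 it had 6.60, 6.79, 5.99 and 6.69. Only MO-2 replicate 1 lay within the control range among the MO-2 arrays, and control replicate 3 was the lowest of the 12. The difference was 0.41 with MO-1 and 0.67 with MO-2 (SE 0.22 each), where it was 1.59-fold with a 95% interval of 0.19 to 1.15. Neither passed (adjusted p 1 and 0.9998, limma, and 0.314 for MO-2 with the block). Without control replicate 3 the differences were 0.23 for MO-1 and 0.50 for MO-2.

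hspb8, which in mammals works with BAG3 in clearing damaged filament proteins of muscle, had 4.82, 5.82, 4.91 and 5.97 in MO-1 replicates 1 to 4. Its signals were 5.59, 6.12, 5.14 and 6.32 with MO-2 and 4.63, 5.41, 4.29 and 5.59 in control. Under each of the 4 replicate numbers the MO-2 array was the highest and the control array the lowest, yet the groups overlapped because the numbers lay far apart. Same-numbered differences of MO-2 from control were 0.96, 0.72, 0.85 and 0.73, with a mean of 0.81 (SE 0.36, 1.76-fold). With the block the SE was 0.13 and the adjusted p 0.239, against 0.9998 without it. The MO-1 difference was 0.40. Without control replicate 3 the differences were 0.17 for MO-1 and 0.58 for MO-2. hspb8 was a dim probe set, with a mean below 6 in each group.

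hspb6, the Hsp20 of mammalian muscle, had 4.26, 4.42, 4.69 and 5.73 with MO-1, 4.10, 4.65, 4.57 and 6.52 with MO-2, against 4.36, 4.33, 3.94 and 5.45 in control. The array numbered 4 was the highest of its group in all 3 groups. The differences of 0.25 with MO-1 and 0.44 with MO-2 were smaller than the SE of 0.49 without the block. With the block all 3 small heat shock proteins had an unadjusted p under 0.05 with MO-2 (limma, against 6.61% of all genes), and 0 were called. Without MO-2 replicate 4, but with control replicate 4 kept, the MO-2 difference of hspb6 was -0.08. Higher values in 4 of 4 same-numbered pairs with MO-2 were found for hspb1 and hspb8, and for 6 of 71 members in all (8.45%, against 7.65% of all genes). Lower values in 4 of 4 pairs were found for 9 members (12.7%, against 7.06%), among them hspa5, hspa8, hspd1 and hspe1. Between MO-2 and MO-1, 4 members were higher in 4 of 4 pairs (against 3.72% of all genes), which were hspb1, hspb8, bag5 and hsp90aa1.1, and 5 were lower (against 3.45%), which were hspa4a, hspa5, hsp90b1, cct6a and hspe1.

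Of the Hsp90 genes, hsp90aa1.1 encodes the cytosolic Hsp90 that zebrafish muscle needs to fold myosin. It had 6.47, 8.14, 6.88 and 8.46 in MO-1 replicates 1 to 4, 7.41, 8.47, 7.31 and 9.04 in MO-2 replicates 1 to 4, and 6.89, 7.60, 6.03 and 8.04 in control replicates 1 to 4. The arrays numbered 2 and 4 were high and those numbered 1 and 3 low in every group, and MO-2 replicate 4 was the highest of the 12. The MO-2 difference of 0.92 was the largest of any member in that comparison (SE 0.53, 1.89-fold, 95% interval -0.23 to 2.07, adjusted p 0.9998, limma), and the MO-1 difference was 0.35. Same-numbered differences of MO-2 from control were 0.52, 0.86, 1.28 and 1.01, and with the block the SE was 0.18 and the adjusted p 0.239. Without control replicate 3 the differences were -0.02 for MO-1, with the sign turned, and 0.55 for MO-2.

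The muscle markers, like hsp90aa1.1, hspb1 and hspb8, were higher in the arrays numbered 2 and 4 than in those numbered 1 and 3 of every group. Their centred mean was -1.05, 0.70, -1.23 and 0.77 in MO-1 replicates 1 to 4, -0.13, 0.74, -0.14 and 1.25 in MO-2 replicates 1 to 4, and -0.39, 0.49, -1.57 and 0.58 in control replicates 1 to 4. It was highest in MO-2 replicate 4 and lowest in control replicate 3, the arrays where hsp90aa1.1, hspb1, hspb6 and hspb8 were also highest and lowest. Muscle genes were not alone in this: the centred mean of 12 measured epidermis markers was also higher under numbers 2 and 4 of every group, at -0.59, 0.02, -0.11 and 0.37 for MO-1, -0.43, 0.05, -0.10 and 0.43 for MO-2, against -0.38, 0.39, -0.21 and 0.55 in control. The part of either list in the differences of hspb1, hspb6, hspb8 and hsp90aa1.1 was not tested. unc45b, the myosin co-chaperone of Hsp90, chosen after its values were seen, differed by 0.03 with MO-1 and 0.28 with MO-2 (SE 0.35).

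The neighbouring gene hsp90aa1.2, which lies beside hsp90aa1.1 on chromosome 20 in the RefSeq gene table, had a different profile. Its signals were 9.91, 9.91, 11.56 and 10.39 with MO-1, 10.02, 9.62, 11.05 and 10.06 with MO-2, against 9.99, 9.998, 12.11 and 9.81 in control. The array numbered 3 stood out in every group, and the other arrays of a group lay closer together. The group differences were -0.04 with MO-1 and -0.29 with MO-2 (SE 0.51). Without control replicate 3 they were 0.51 and 0.26, so both turned sign. With arrays left out in 13 ways, the MO-1 difference turned sign in 3 and the MO-2 difference in 1. A further probe set of the gene gave -0.21 and -0.37. A probe set that matches both neighbours was left out by the rule, and it gave -0.27 with MO-1 and -0.34 with MO-2 (SE 0.40); near-identical copies may share signal on these arrays.

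hsp90ab1, the constitutive Hsp90 of the cytosol, was the steadiest gene of the family. It had 12.81, 12.63, 12.67 and 12.51 with MO-1, 12.65, 12.62, 12.56 and 12.63 with MO-2, against 12.80, 12.66, 12.75 and 12.62 in control. The groups overlapped, and the differences were -0.05 and -0.09 (SE 0.11), with 95% intervals of -0.29 to 0.19 and -0.33 to 0.15.

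**Figure D2:**
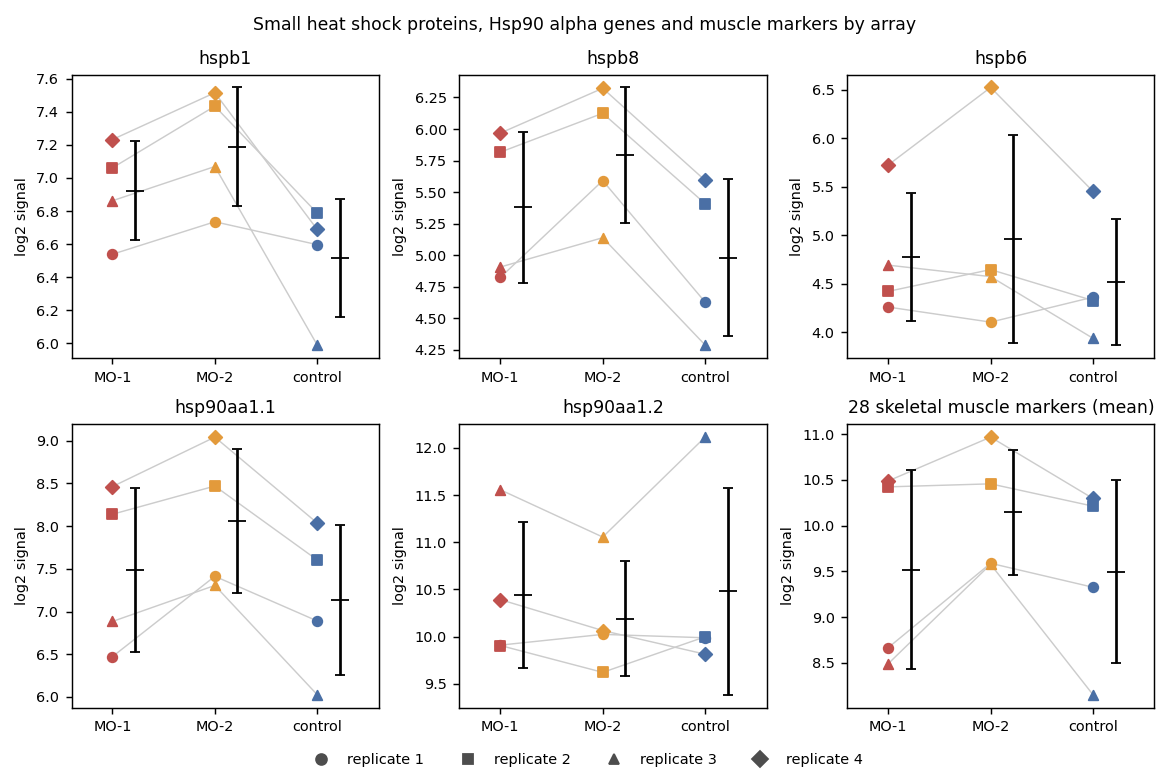
Log2 signal in each array for hspb1, hspb8, hspb6, hsp90aa1.1, hsp90aa1.2 and the mean of the 28 skeletal muscle markers, with MO-1 left, MO-2 next and control right. Marker shapes give replicate numbers 1 to 4, grey lines join arrays of the same number, and black bars are group means with 1 SD to each side (4 arrays a group). In every group hspb1, hspb8, hsp90aa1.1 and the muscle markers are higher under numbers 2 and 4 than under 1 and 3. hsp90aa1.2 is high under number 3.

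Members that work in the endoplasmic reticulum, where secreted and membrane proteins fold, mostly had lower means than control with MO-2 and were mixed with MO-1, and 0 of them passed. hspa5, known as BiP, the Hsp70 of that compartment, had 11.64, 11.50, 12.21 and 11.96 in MO-1 replicates 1 to 4. It had 11.55, 11.38, 11.67 and 11.67 with MO-2, against 11.93, 11.90, 12.32 and 11.80 in control. All MO-2 arrays lay below all control arrays, and the MO-1 arrays overlapped both. The difference was -0.42 with MO-2 (SE 0.17, 0.748-fold) and -0.16 with MO-1; neither passed (adjusted p 0.9998 and 1, limma; 0.551 for MO-2 with the block).

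dnajb11, the J protein that serves BiP, had 7.80, 7.62, 8.05 and 7.40 with MO-1, 7.15, 7.24, 7.11 and 7.61 with MO-2, against 7.81, 7.22, 7.68 and 7.67 in control. The groups overlapped, and MO-2 replicates 1 and 3 were the lowest of the 12 arrays. Its differences from control were 0.12 with MO-1 and -0.32 with MO-2 (SE 0.18), and MO-2 lay below MO-1 by -0.44 (95% interval -0.83 to -0.05, adjusted p 0.9999, limma). hsp90b1, known as Grp94, had 10.77, 10.62, 11.15 and 10.55 with MO-1, 10.65, 10.46, 10.61 and 10.14 with MO-2, against 10.58, 10.63, 11.17 and 10.42 in control. MO-2 was below MO-1 under all 4 numbers, with a mean difference of -0.31 (SE 0.19), and differed from control by -0.23, or by -0.08 without control replicate 3.

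dnajc3a, an inhibitor of the stress kinase PERK, differed by 0.14 with MO-1 and -0.22 with MO-2 (SE 0.25). Without MO-1 replicate 3 its MO-1 difference was -0.11, and without control replicate 3 its MO-2 difference was -0.06. Over 7 members chosen for the compartment, which are these 4 with dnajc1, dnajc10 and dnajc3b, the median difference was 0.00 with MO-1. There 4 were higher and 3 lower. With MO-2 it was -0.22, where 1 was higher and 6 lower, and between MO-2 and MO-1 it was -0.26 with the same split of 1 and 6. Among the 6, dnajc1 and dnajc10 differed by only -0.001 and -0.03 with MO-2, and by -0.006 and -0.005 between the morpholinos. Over all genes 53.3% were higher with MO-2, and between the morpholinos 4125 were higher and 4668 lower. The median over all genes was 0.01 with MO-2 and -0.01 between the morpholinos. The 7 members were grouped, and hspa5, dnajb11 and dnajc3a named, after their values were seen. The grouping left out dnajb12a and dnajc18, J proteins whose mammalian counterparts sit in the membrane of this compartment. They differed by -0.04 and 0.11 with MO-2, and by 0.02 and 0.13 between the morpholinos. The medians therefore hold for the 7 chosen members and not for the whole compartment.

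The list of other folding factors of the endoplasmic reticulum had 16 measured genes of 20, of which 0 passed. With MO-1 6 were higher and 10 lower, with a median of -0.01. With MO-2 3 were higher and 13 lower, with a median of -0.23. Calnexin (canx), a lectin chaperone, differed by 0.21 with MO-1 and -0.24 with MO-2 (SE 0.22), and calr3b, a calreticulin, by 0.01 and -0.56 (SE 0.22). The disulfide isomerase pdia2 went the other way, at 0.48 and 0.56 (SE 0.25).

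**Figure D3:**
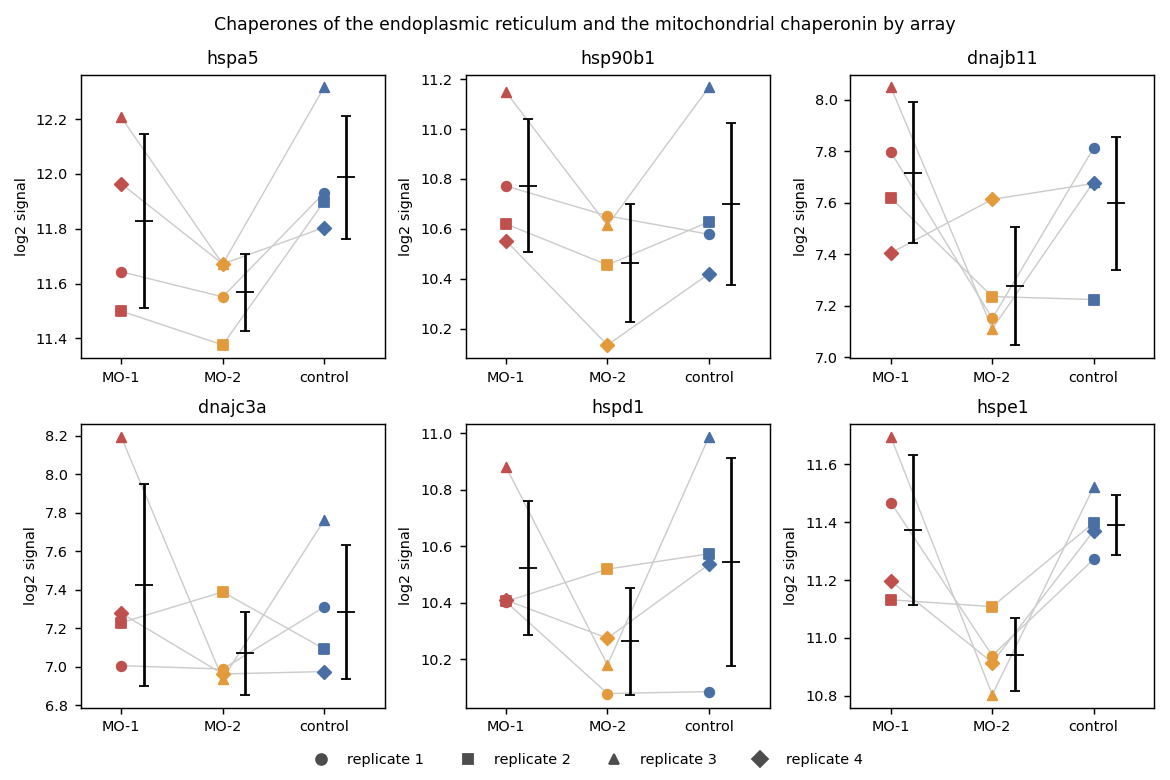
Log2 signal in each array for hspa5, hsp90b1, dnajb11 and dnajc3a of the endoplasmic reticulum and hspd1 and hspe1 of mitochondria, with MO-1 left, MO-2 next and control right. Marker shapes give replicate numbers 1 to 4, grey lines join arrays of the same number, and black bars are group means with 1 SD to each side (4 arrays a group); the MO-2 points of hspa5 and of hspe1 lie below all control points.

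In the mitochondrion, hspe1 (Hsp10) had the lowest unadjusted p of the members that were lower with MO-2. It had 11.47, 11.13, 11.69 and 11.20 in MO-1 replicates 1 to 4, 10.94, 11.11, 10.80 and 10.91 in MO-2 replicates 1 to 4, and 11.27, 11.40, 11.52 and 11.37 in control replicates 1 to 4. All MO-2 arrays lay below all arrays of both other groups, by a narrow margin to MO-1 replicate 2. The difference was -0.45 from control (SE 0.14, 0.733-fold, 95% interval -0.76 to -0.14) and -0.43 from MO-1, and neither passed (adjusted p 0.9998 and 0.9999, limma; 0.562 and 1 with the block). MO-1 differed from control by -0.02.

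hspd1 (Hsp60), the chamber that Hsp10 closes and the neighbour of hspe1 on chromosome 9, had 10.40, 10.40, 10.88 and 10.41 with MO-1. It had 10.08, 10.52, 10.18 and 10.27 with MO-2 and 10.08, 10.57, 10.99 and 10.54 in control. The MO-2 array was below its same-numbered control array under all 4 numbers, by -0.81 under number 3 but by -0.01 and -0.05 under numbers 1 and 2. The mean difference was -0.28 with MO-2 and -0.02 with MO-1 (SE 0.19). hspa9, the mitochondrial Hsp70, differed by -0.05 with each morpholino, and a further probe set of the gene gave -0.14 with MO-1 and -0.16 with MO-2 (SE 0.19). Without control replicate 3 the hspd1 difference with MO-2 was -0.14. Of 8 other measured genes of mitochondrial protein quality control, 0 passed. Their medians were 0.09 with MO-1 (8 higher, 0 lower) and 0.03 with MO-2 (5 higher, 3 lower). Of all genes 56.2% were higher with MO-1 and 53.3% with MO-2. Each of the 8 MO-1 differences was smaller than its SE. The Hsp90 relative trap1 differed by 0.17 and 0.04 (SE 0.21) and the protease subunit clpp by 0.15 and -0.06 (SE 0.22).

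Within the cytosolic Hsp70/40 system, hspa1b had the largest difference with MO-1. It had 6.01, 6.36, 7.01 and 6.67 in MO-1 replicates 1 to 4, 6.24, 6.76, 6.37 and 6.43 in MO-2 replicates 1 to 4, and 6.04, 6.21, 5.63 and 6.06 in control replicates 1 to 4. All MO-2 arrays lay above all control arrays, by a narrow margin, and only MO-1 replicate 1 lay within the control range among the MO-1 arrays. The difference was 0.53 with MO-1 (1.44-fold) and 0.46 with MO-2 (1.38-fold, SE 0.21 each), and neither passed (adjusted p 1 and 0.9998, limma).

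The strongly stress-inducible hsp70.3 had lower means than control with both morpholinos. It had 11.17, 12.10, 12.66 and 12.12 with MO-1, 11.69, 12.24, 12.36 and 12.10 with MO-2, against 12.32, 12.68, 12.44 and 11.63 in control. Differences of -0.25 and -0.17 (SE 0.29) were within the spread of overlapping groups, and without MO-1 replicate 1 the MO-1 difference was 0.03. A probe set that matches hsp70.3 and its near copies hsp70.1 and hsp70l was left out by the rule and gave -0.21 and -0.16 (SE 0.32). Signal of these copies may not be separated by the array.

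hspa8, the constitutive Hsc70, had 12.88, 12.58, 12.59 and 12.45 with MO-1, 12.64, 12.60, 12.69 and 12.47 with MO-2, against 12.81, 12.71, 12.77 and 12.54 in control. Its values overlapped between groups, with differences of -0.08 and -0.11 (SE 0.13). hspa4a, of the Hsp110 class that resets Hsp70, had 9.60, 9.63, 9.95 and 9.50 with MO-1, 9.44, 8.80, 9.37 and 9.38 with MO-2, against 9.21, 9.10, 10.37 and 10.09 in control. The MO-2 arrays lay below all MO-1 arrays, but control replicates 1 and 2 were low as well, so that the difference of -0.45 from control (SE 0.27) was -0.22 without control replicate 3. Its relative hspa4b differed by 0.01 and -0.01. Over the 12 Hsp70 and Hsp110 genes, 4 were higher and 8 lower with MO-1 and 5 higher and 7 lower with MO-2.

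The 28 J proteins split 12 higher and 16 lower with MO-1 and 13 higher and 15 lower with MO-2, with medians of -0.01 and -0.02. dnajb6a, which keeps polyglutamine proteins from aggregating in humans, had 9.89, 9.82, 9.54 and 9.59 with MO-1, 9.56, 9.30, 9.40 and 9.92 with MO-2, against 10.24, 9.62, 10.24 and 9.80 in control. Although MO-2 replicates 1 to 3 lay below all control arrays, replicate 4 did not, and the differences were -0.26 and -0.43 (SE 0.18). A dimmer probe set of the same gene gave -0.15 and 0.01. Its paralog dnajb6b differed by 0.00 and 0.25 (SE 0.39).

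dnaja1, a J protein of the cytosol, differed by -0.33 with MO-1 and by -0.30 with MO-2 (SE 0.22). Its control replicate 3 had 8.15, against 7.08 to 7.36 in the other control arrays, and without that array the differences were -0.10 and -0.07. dnajb1a and dnajb1b, counterparts of the main heat-inducible Hsp40, differed by -0.22 and -0.23 with MO-1 and by -0.14 and -0.10 with MO-2. Without control replicate 3 the dnajb1a differences turned to 0.08 for MO-1 and 0.15 for MO-2. dnajc11a, of the mitochondrial inner membrane organising machinery, had 6.50, 7.41, 7.30 and 6.78 with MO-1, 7.17, 6.92, 7.25 and 6.95 with MO-2, against 6.62, 6.77, 6.73 and 6.66 in control. All MO-2 arrays lay above all control arrays, with a difference of 0.37 (SE 0.19), and MO-1 differed by 0.30.

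Dimmest of the family was dnajc4, which stayed between 3.22 and 3.46 in all 12 arrays. dnajc19, which helps mitochondrial import, differed by -0.03 and 0.07 (SE 0.30). The 4 BAG genes all had higher means with MO-1, from 0.04 to 0.11, as had 56.2% of all genes. Each of these differences was smaller than its SE (0.13 to 0.19). With MO-2 bag5 stood highest of the 4 at 0.26 (SE 0.13). Its lowest MO-2 array (5.0600) was barely above its highest control array (5.0568) in this dim probe set. The groups were separate with MO-2 for 3 members that were higher, bag5, dnajc11a and hspa1b (against 1.06% of all genes), and for 2 that were lower, hspa5 and hspe1 (against 0.944%). They were separate between MO-2 and MO-1 for 2 that were lower, hspa4a and hspe1 (against 0.307%), and for 0 members between MO-1 and control (against 0.625% higher and 0.33% lower).

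Of the cytosolic chaperonin CCT all 8 subunits were measured, and 0 were called. The SE of a difference ran from 0.14 for cct5 to 0.23 for cct2. Differences ran from -0.18 (cct7) to 0.12 (cct4) with MO-1, with 6 higher and 2 lower, and from -0.24 (cct6a) to 0.13 (tcp1) with MO-2, with 3 higher and 5 lower. cct5 had 11.91, 11.94, 12.02 and 11.84 with MO-1, 12.07, 11.88, 11.86 and 11.46 with MO-2, against 11.90, 11.78, 12.09 and 11.85 in control. Its groups overlapped, with differences of 0.02 and -0.09, and 95% intervals of -0.29 to 0.33 and -0.39 to 0.22. cct8 differed by 0.05 and -0.02 (SE 0.17), and cct2 by 0.10 and 0.06 (SE 0.23).

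cct6a had 10.84, 10.46, 10.75 and 10.18 with MO-1, 10.70, 10.34, 10.41 and 9.995 with MO-2, against 10.55, 10.49, 10.78 and 10.56 in control. The groups overlapped, and the MO-2 array was below the MO-1 array under all 4 numbers. Its 95% interval for MO-2 was -0.62 to 0.15. Of the 4 prefoldin subunits, which hand actin and tubulin to CCT, pfdn2 differed by 0.04 and 0.13, pfdn4 by 0.03 and -0.16, pfdn5 by 0.10 and 0.08 and pfdn6 by -0.08 and 0.00.

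**Figure D4:**
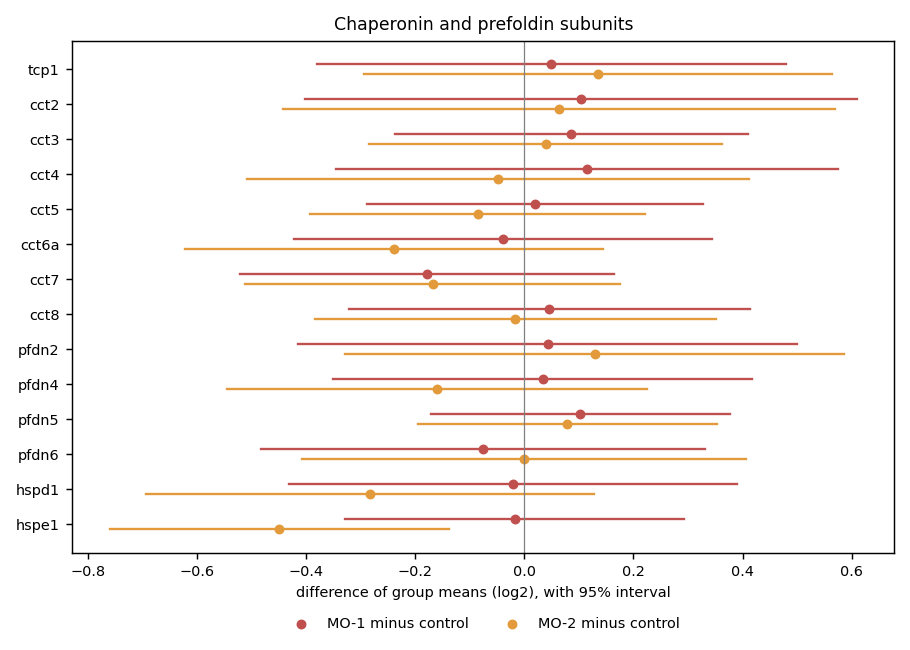
Difference of group means (log2) with its 95% interval for the 8 CCT subunits, 4 prefoldin subunits, hspd1 and hspe1, with MO-1 minus control above MO-2 minus control in each pair. All intervals reach across 0 but that of hspe1 with MO-2, which runs from -0.76 to -0.14.

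The transcription factors of the heat shock response did not pass the test between groups. hsf1, the main activator, had 8.24, 8.31, 8.57 and 7.81 with MO-1, 8.40, 8.29, 8.24 and 7.81 with MO-2, against 8.36, 8.26, 8.69 and 7.95 in control. The groups overlapped, with differences of -0.08 and -0.13 (SE 0.20). hsf2 differed by -0.19 and -0.14 (SE 0.25). With MO-1 it was lower than control under numbers 1, 3 and 4 and level with it under number 2 (7.387 against 7.389). hsf5 was dim, with differences of 0.14 and 0.08 (SE 0.15), and hsf2bp had group means of 2.68 to 2.82, with differences of 0.13 and -0.01. tcp11l2 differed by 0.02 and -0.21 (SE 0.24).

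Among 12 measured genes of the unfolded protein and heat stress responses outside the members, 0 passed. With each morpholino 3 were higher and 9 lower, with medians of -0.15 with MO-1 and -0.18 with MO-2. The autophagy receptor sqstm1 differed by -0.47 and -0.07 (SE 0.37), chac1, a glutathione-degrading target of the stress factor ATF4, by -0.28 and -0.25 (SE 0.15), ubiquitin B (ubb) by -0.25 and -0.42 (SE 0.22) and the collagen chaperone serpinh1b by -0.09 and -0.35 (SE 0.20).

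Of 17 measured Hsp90 co-chaperones 0 passed. With MO-1 10 were higher and 7 lower, with a median of 0.02, and with MO-2 5 were higher and 12 lower, with a median of -0.08. The glucocorticoid-induced co-chaperone fkbp5 differed by -0.57 and -0.45 (SE 0.36), the activator ahsa1a by 0.46 and 0.25 (SE 0.36) and ptges3b, a p23, by -0.29 and -0.45 (SE 0.17). Of 6 measured genes listed as Hsp70 cofactors outside the rule 0 passed, with medians of 0.07 with MO-1 (4 higher, 2 lower) and -0.12 with MO-2 (1 higher, 5 lower). There sgta, which guides tail-anchored proteins, differed by -0.09 and -0.46 (SE 0.14), and hyou1, an Hsp110 of the endoplasmic reticulum, by 0.14 and -0.32 (SE 0.26). The list also held tomm20b, an import receptor subunit and not an Hsp70 cofactor. It differed by 0.19 and 0.23 (SE 0.13) and was the 1 gene of the list that was higher with MO-2.

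Some members were called by replicate number, whereas 0 were called between the groups, with or without the block. No source used here says what the number stands for, and each number holds 1 array of every group. A moderated F test of the number with the group differences taken out called 10 of 71 members (14.1%, against 13.2% of all genes), so members were called about as often as genes in general. By mean over the 3 arrays of numbers 1 to 4, hsp90aa1.1 had 6.92, 8.07, 6.74 and 8.51 (adjusted p 0.00061, limma). hspb8 had 5.02, 5.78, 4.78 and 5.96 (adjusted p 0.000928, limma), with the same order of numbers. The muscle markers shared it, at -0.53, 0.64, -0.98 and 0.86, and 27 of 28 of them were called by number.

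hsp90aa1.2 had 9.97, 9.84, 11.57 and 10.09 under numbers 1 to 4 (adjusted p 0.00135, limma), so that number 3 was high. hspb6 had 4.24, 4.47, 4.40 and 5.90 (adjusted p 0.00186, limma) and dnajb6b had 6.70, 7.22, 7.24 and 8.20 (adjusted p 0.00158, limma), so that number 4 was high. hsf2 (adjusted p 0.0116, limma) and dnajc3b (0.0292) were also highest under number 4, hsf2 at 8.11. dnajc9, a histone chaperone in humans (adjusted p 0.0165, limma), hspa14, a ribosome-bound Hsp70 in mammals (0.0299), and hsf1 (0.0498) were lowest there. Their means there were 8.10, 7.58 and 7.86. The hsf1 call was lost when any 1 number was left out, and a dimmer hsf1 probe set was not called by number (adjusted p 0.912, limma). The hspa14 array numbered 3 was the highest of each group, at 8.33 with MO-1, 8.22 with MO-2 and 8.34 in control.

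Number 4 was also where the endothelial markers were lowest, with a mean of -0.76 over its 3 arrays against 0.22, 0.30 and 0.25 under numbers 1 to 3, and 7 of 11 were called by number. The epidermis markers were highest there, at 0.45 against -0.47, 0.16 and -0.14 under numbers 1 to 3, with 7 of 12 called. The leukocyte markers were lowest there, at -0.40 against -0.09, 0.34 and 0.15, with 3 of 7 called. Without number 4, 3 of 71 members were called, hsp90aa1.1, hsp90aa1.2 and hspb8, and 3.33% of all probe sets. The part of endothelial, muscle, epidermal or leukocyte RNA in these differences was not tested.

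**Figure D5:**
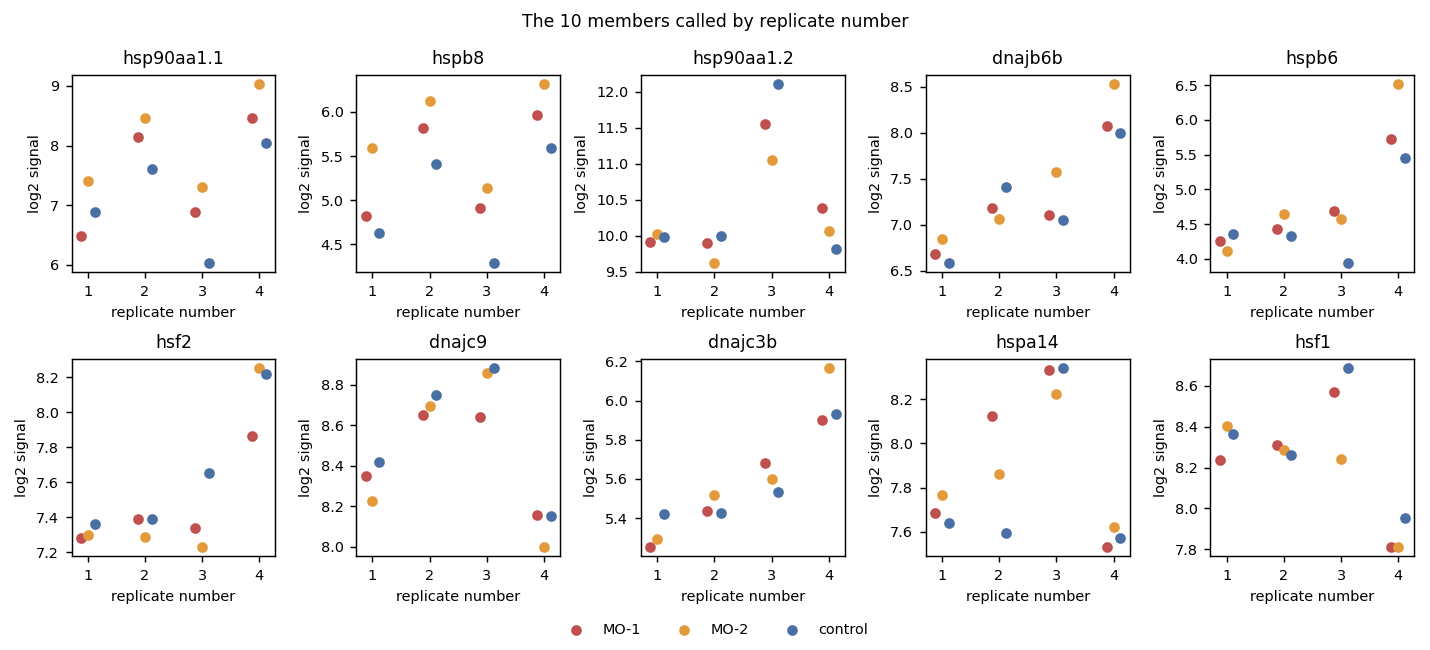
Log2 signal (vertical axis) by replicate number 1 to 4 (horizontal axis) for the 10 members called by number, 1 panel per gene. Each point is an array, coloured as MO-1, MO-2 or control; hsp90aa1.1 and hspb8 are high under numbers 2 and 4, hsp90aa1.2 under number 3, and dnajb6b, hspb6, hsf2 and dnajc3b under number 4, where dnajc9 and hsf1 are low.

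A single array set many of the extremes. Control replicate 3 held the highest of the 12 values for 26 of 71 members (36.6%, against 10.7% of all genes): 17 of the Hsp70/40 system, 2 Hsp90 genes, 6 chaperonin genes, 5 of them CCT subunits, and 1 other. It held the lowest value for 8 (11.3%, against 7.98%). MO-2 replicate 4 was highest for all 3 small heat shock proteins and lowest for 18 members (25.4%, against 18.5%). The spread within groups had a median SD of 0.273 over the members, beside 0.267 over all genes. It was 0.586 for the small heat shock proteins and 0.564 for Hsp90, against 0.269 for Hsp70/40 and 0.242 for the CCT subunits, and it ran from 0.07 for hsf2bp to 0.89 for hsp90aa1.1.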

How the data were processed

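RNA of 12 samples was measured on Affymetrix zebrafish arrays with a single colour. The deposited log2 values were made by the authors with RMA, per the submitters' processing notes, which corrects background and normalizes across arrays. No source used here gives its version, and base 2 of the logarithm was inferred from the range of the values. Per the labels' protocols, RNA was extracted with Trizol and amplified by NuGen's WT-Ovation Pico kit. Amplification and RMA can compress differences of dim and of very bright probe sets, and RMA would remove a shift common to most genes.

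Of 15617 probe sets, 115 control probe sets were left out and 15502 were tested with no filter on low values. GEO's platform annotation gave 1 gene symbol for 10795 of them, several for 135 and none for 4572. All 71 member symbols were found unchanged in the RefSeq gene table. Of the matching probe sets 80 had 1 symbol, 2 matching probe sets with several symbols were left out, and 14 members had a mean log2 signal under 6, as had 2181 of the 8793 genes.

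Tests used limma 3.58.1 under R 4.3.3 (a fit of the means of the 3 groups with lmFit and eBayes, two-sided, p adjusted by Benjamini-Hochberg over all 15502 probe sets, threshold 0.05). Replicate number was tested with a moderated F test and a group term. SE is limma's standard error. The median SE of a difference was 0.18, or 0.16 with the replicate block. The scripts were tested on simulated data.

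The replicate number comes from the sample titles. Centred on group means, the 12 same-numbered pairs of arrays correlated at 0.223 to 0.626, the 36 other pairs had a median of -0.17, and 12 of 12 arrays correlated best with one of the same number, so the number was taken to pair the samples.

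Members and gene lists were chosen with earlier results of these data known. Genes were named by a fixed rule: in each family the 3 largest differences with each morpholino, the 2 brightest and the dimmest probe set, the 3 with the largest spread and the 3 with the smallest p for replicate number, every heat shock factor and every small heat shock protein and Hsp90 gene. In each pathway list up to 2 genes per morpholino were named. Of other members named, those chosen after their values were seen were bag5, dnajb1b, dnajb11, dnajb12a, dnajc3a, dnajc18, hspa4b, hspa5, hspa9, hspa14, pfdn5 and tcp1. Those in the counts of BAG genes were also chosen after their values were seen. serpinh1b is in both the endoplasmic reticulum and the stress list, and grpel1 in both the Hsp70 cofactor and the mitochondrial list. Alternatives tried were the replicate block, leaving out arrays, an intensity trend, array weights, median centring, quantile normalization, a filter at a mean of 6 and other ways to choose a probe set. Promoter sequences and motifs were not analysed here.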

Additional observations from a re-analysis of the deposited data

Results flagged for a closer look

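In 13 of 213 groups of 4 arrays (6.1%) 1 array stood far from the other 3, by a gap above Dixon's 95% critical value. Chance gives about 1 in 20, which is near this share, and the share over all genes is not given here. 4 of the 13 were in control replicate 3 and high: hsp90aa1.2 at 12.11 (others 9.81 to 9.998), cct4 at 11.64 (others 10.80 to 10.91), tcp1 at 10.94 (others 10.23 to 10.34) and hspa14 at 8.34 (others 7.57 to 7.64). MO-2 replicate 4 was high for hsf2 at 8.25 (others 7.23 to 7.30) and low for cct3 at 10.77 (others 11.26 to 11.35) and pfdn6 at 5.78 (others 6.50 to 6.62). MO-2 replicate 2 was high for dnajc3a at 7.39 (others 6.94 to 6.99) and low for hspa4a at 8.80 (others 9.37 to 9.44). MO-1 replicate 3 was high for hspd1 at 10.88 (others 10.40 to 10.41). In control, replicate 4 was low for dnajc5ga at 6.88 (others 7.58 to 7.66) and high for tcp11l2 at 9.65 (others 9.15 to 9.18). Control replicate 2 was high for hsc70 at 6.68 (others 6.31 to 6.35). The array symbol hsc70 stands for a member separate from hspa8, which is named Hsc70 above.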

How the results depend on the processing

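Member counts at an unadjusted p under 0.05 moved most: with the replicate block they were 3 for MO-1, 10 for MO-2, 8 for both morpholinos and 5 between the morpholinos, against 1, 6, 3 and 2 without it, and with array weights 0 with MO-1. With 1 array, or all arrays numbered 4, left out they ran from 0 to 3 for MO-1, 2 to 8 for MO-2, 0 to 5 with both and 1 to 3 between the morpholinos. The lowest count with MO-1 came without MO-1 replicate 3 or 4, control replicate 3 or number 4 and its highest without MO-1 replicate 1, that with MO-2 without MO-2 replicate 2 or control replicate 3, that with both without control replicate 3. With the block and without number 4, a setting chosen after seeing the data, 7 probe sets were called with MO-2 and 2 with both, but 0 members, and 8 members with both and 6 between the morpholinos had an unadjusted p under 0.05. Probe sets called ran from 0 to 1 with MO-2 and with both when arrays were left out (1 without number 4), and members called were 0 in all 4 group comparisons under every setting run. Calls by replicate number ran from 516 (without number 4) to 1587 probe sets and from 3 to 10 members when a number was left out, against 1873 and 10, with 1114 probe sets without number 1. The median of the Hsp90 genes with MO-2 ran from -0.22 to 0.091 (highest without control replicate 3). That of the small heat shock proteins ran from 0.17 to 0.57 with MO-1 and 0.50 to 0.82 with MO-2 (both lowest without control replicate 3). Of 1704 values (78 differences of single genes under up to 22 settings), 134 turned sign and 0 passed the threshold; where values changed, the cause was not tested. The block changed no group call. Dim probe sets, such as those of hspb6, hspb8, hsf5 and dnajc4, are limited by signal close to background.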
